A study of Oryctolagus cuniculus with 12 samples.

Results

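Genes for the assembly and motility of cilia were followed in rabbit conjunctiva after glaucoma surgery. They were taken by name from the table of genes: intraflagellar transport (IFT), Bardet-Biedl syndrome (BBS), tectonic (TCTN), axonemal dynein heavy and intermediate chain (DNAH, DNAI), cilia and flagella associated protein (CFAP) and radial spoke head (RSPH) genes with a number in the name, with FOXJ1, RFX2, RFX3, MAK and C13H1orf194. Of 20566 genes, 75 names matched, and 53 of them had at least 10 counts in 3 libraries. These 53 are the cilium genes described here.

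The study sequenced polyadenylated RNA of conjunctiva from female Japanese white rabbits, aged 12 to 14 weeks in the study's methods, in 12 libraries. The right eye had trabeculectomy, an operation that opens a drain for aqueous humor under the conjunctiva and leaves a raised filtering bleb, with mitomycin C, which slows scarring. Bleb conjunctiva was taken 3 hours (TL-3h), 3 days (TL-3d) or 14 days (TL-14d) after the operation, and conjunctiva of unoperated left eyes was the control (cont), with 3 libraries in each group. By the study's methods, operated eyes were also given betamethasone, a glucocorticoid, by injection into the conjunctiva and an antibiotic ointment. The paper took its trabeculectomy sequence data from an earlier analysis, so the age and drugs in its methods may not hold for every animal here. The controls had neither the operation nor a stated drug, so the effects of the operation, mitomycin C and these drugs cannot be told apart. Which control eye came from which operated animal, and at what time it was taken, was not stated, so that p-values measure the spread between libraries only.

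Cilia are hair-like outgrowths of the cell surface on an axoneme of microtubules, and they are built at the tip. IFT-B carries cargo outward with kinesin and IFT-A returns it with dynein, while the BBSome, a coat made of BBS proteins, carries membrane proteins. The tectonic proteins belong to the transition zone, the gate at the cilium base. Most cells carry a single primary cilium that does not beat, whereas dynein arms, radial spokes and many CFAP proteins serve motile cilia and sperm flagella, and RFX factors and FOXJ1 switch on the genes for them. Conjunctival epithelium is stratified with goblet cells and is not a motile ciliated lining.

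Totals ran from 27111348 to 38591425 counts per library, and 3 counts were worth 0.0712 to 0.124 CPM, the count scaled to the adjusted library size. All 8 epithelial marker genes in the table were tested, and their summed level was 6135 to 12212 CPM in the controls. The library TL-14d 1 stood closer to the controls than to its own group, with a mean correlation of 0.958 across genes against 0.883. Markers of skeletal muscle summed to 271 CPM in cont 2 and 299.5 CPM in TL-3d 3, against at most 6.80 CPM in the other libraries.

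In control conjunctiva the transport genes were present at moderate levels, dynein chain genes were low, and the CFAP and RSPH genes ranged widely. On the per-length FPKM scale, the 14 IFT genes had a median control level of 5.997, with a range of 2.52 to 12.4, and all 14 names passed the count condition. The lowest was IFT20, and the levels of IFT20, IFT22 and IFT43 may be too low, since the gene table held 5.07, 2.21 and 1.70 times fewer counts for them than their transcripts together. The 8 BBS genes had a median of 3.33 FPKM and the 3 TCTN genes one of 9.76 FPKM. The 8 DNAH genes that passed had a median of 0.0573 FPKM, and DNAI1 a level of 0.176 FPKM. The 11 CFAP genes had a median of 0.730 FPKM with a range of 0.0216 to 17.1, and the 3 RSPH genes one of 0.412 FPKM with a range of 0.116 to 6.39, the highest of them RSPH3. CFAP20, which is also used outside motile cilia, was the highest of all 53 at 17.1 FPKM, followed by BBS2 at 15.7 and IFT52 at 12.4 FPKM. The median over the 52 cilium genes that could be tested was 2.93 FPKM, against 7.40 FPKM over all 14835 genes tested.

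**Figure D1:**
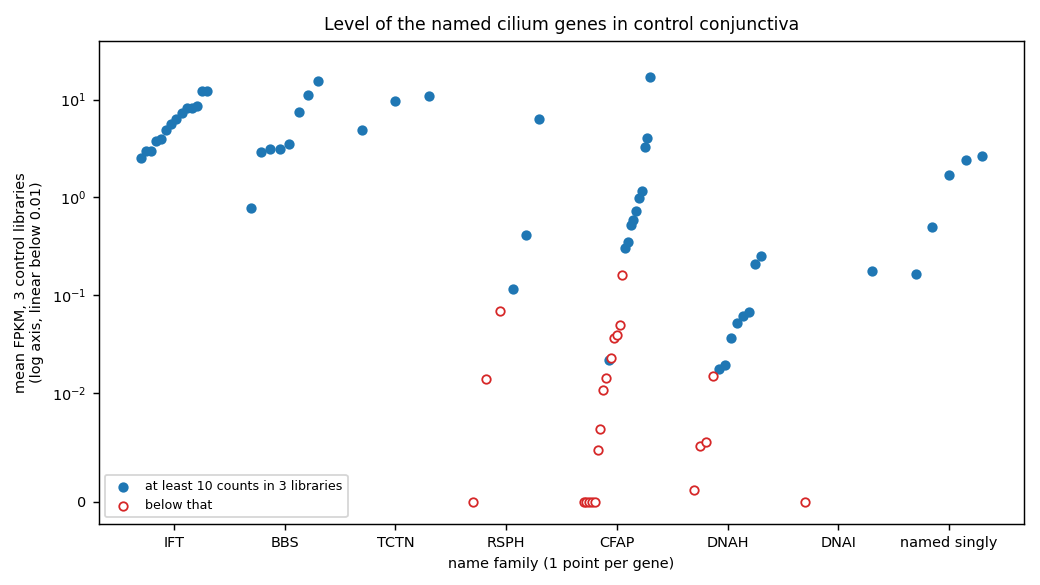
Mean FPKM over the 3 control libraries (vertical axis, logarithmic above 0.01 and linear below) for each of the 75 matched names, in columns by name family. Filled points had at least 10 counts in 3 libraries and open points did not; the IFT, BBS and TCTN columns hold filled points only, while no DNAH gene exceeded 0.251 FPKM.

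The 22 names that did not pass were 14 CFAP, 4 DNAH, 1 DNAI and 3 RSPH genes. None exceeded 21 counts in any library, 7 never exceeded 3 counts, and RSPH4A and CFAP77 had 0 counts in all 12 libraries. Several defining genes of multiciliated cells were in the same range, with at most 3 counts of MCIDAS, 7 of CCNO, 5 of TEKT1, 4 of SPAG6 and 7 of RSPH1 in any library. Others of the 11 genes on that marker list were higher. FOXJ1 reached 84 counts, DNAH9 reached 205 and CCDC39 reached 53, and HYDIN, a central pair protein, was at 4.60, 4.18 and 4.11 CPM in the controls and 1.65, 1.12 and 1.21 CPM in TL-3h. The summed level of the list was 7.20 to 11.3 CPM in the controls and 3.00 to 4.19 CPM in TL-3h. Of the 53 cilium genes, 39 had at least 10 counts in all 12 libraries and 14 did not, among them FOXJ1, MAK, C13H1orf194, DNAI1 and 7 of 8 DNAH genes, so their fold changes rest on few counts.

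The first comparison asked which cilium genes had moved at 3 hours. Of the 14 IFT genes 8 fell and of the 8 BBS genes 5 fell, by 4.07-fold for IFT81 and 3.23-fold for BBS2, and the factor RFX3 fell 3.54-fold. IFT20, BBS5 and DNAH17 rose. Of the 52 cilium genes tested, 18 were lower and 3 were higher at an adjusted p (q) of at most 0.05 in edgeR's quasi-likelihood test with Benjamini-Hochberg adjustment over all 14835 genes. Over all genes tested, 45.4% were called, 22.2% were lower and 23.2% were higher by the same rule, so the share of cilium genes that were lower (34.6%) was above that of all genes. The cilium genes were chosen with earlier results of these data known, so this comparison of shares describes them and does not test them. The median log2 fold change was -0.54 over the cilium genes and 0.02 over all genes. In 24 of the 53 all TL-3h libraries were below all control libraries and in 6 they were above, where 28.3% and 28.9% of all genes were so placed. In whole tissue, fewer cells that carry a transcript and less of it per cell cannot be told apart.

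**Figure D2:**
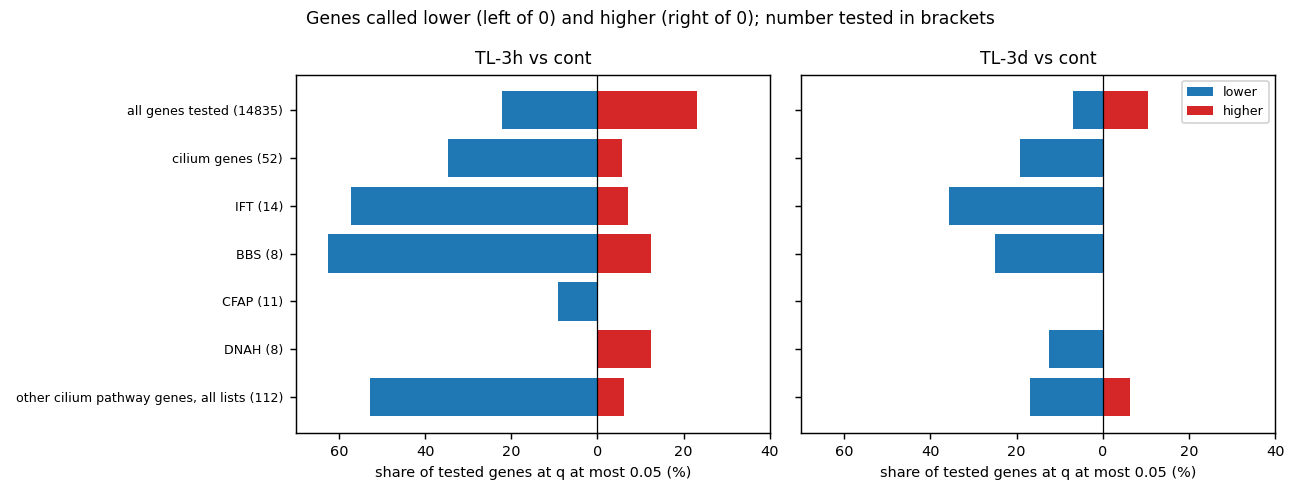
Share of tested genes at q of at most 0.05 (horizontal axis, %), lower to the left and higher to the right of 0, for all genes, the cilium genes, 4 of their name families and the other cilium pathway genes, at TL-3h and TL-3d against cont. At TL-3h the lower share was 57.1% for IFT and 62.5% for BBS genes, against 22.2% for all genes and 9.09% for CFAP genes.

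Of the 14 IFT genes, 8 fell at 3 hours, 1 rose and 5 did not pass, where 22.2% of all genes were lower and 23.2% higher. IFT81 and IFT74 form a pair in the IFT-B core that binds tubulin. IFT81 (gene 100352036, chromosome 21, 6435880 to 6562775, plus strand of OryCun2.0) measured 17.4, 16.4 and 14.8 CPM in the controls, 4.11, 4.48 and 3.33 in TL-3h, 9.47, 9.36 and 11.98 in TL-3d and 15.9, 11.8 and 15.4 in TL-14d. The TL-3h libraries were below every other library, and TL-3d lay between TL-3h and the controls. The log2 fold change at 3 hours was -2.03 ± 0.19 (SE, q = 5.81e-05), from 16.2 ± 1.29 to 3.97 ± 0.588 CPM (mean ± SD, n = 3 libraries). IFT74 (gene 100349459, chromosome 1, 26482345 to 26593473, minus strand) measured 20.6, 20.4 and 22.2 CPM in the controls, 7.69, 5.27 and 5.56 in TL-3h, 9.79, 11.1 and 15.1 in TL-3d and 15.7, 15.2 and 17.1 in TL-14d. Each operated group was wholly below the controls, with a log2 fold change of -1.77 ± 0.20 at 3 hours (q = 1.38e-04).

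IFT88, a core subunit without which cilia do not form, also fell. IFT88 (gene 100009576, chromosome 8, 43903139 to 44035837, minus strand) had 14.0, 14.5 and 12.9 CPM in the controls, 4.34, 4.85 and 4.28 in TL-3h, 8.19, 5.66 and 9.70 in TL-3d and 14.99, 11.5 and 11.2 in TL-14d. The control, TL-3h and TL-3d ranges did not overlap, and the change at 3 hours was -1.62 ± 0.22 (q = 2.87e-04). IFT122, a core subunit of IFT-A (gene 100339148, chromosome 9, 11038134 to 11097192, minus strand), had 18.2, 16.4 and 17.4 CPM in the controls, 4.92, 5.35 and 4.43 in TL-3h, 6.12, 6.77 and 8.34 in TL-3d and 18.9, 8.23 and 11.4 in TL-14d. The TL-14d libraries were spread from the TL-3d range to above the controls, with the highest value in TL-14d 1, and the change at 3 hours was -1.82 ± 0.28 (q = 6.20e-04). IFT172, a peripheral IFT-B subunit that acts in turnaround at the cilium tip (gene 100348467, chromosome 2, 158605324 to 158648160, plus strand), had 56.4, 47.5 and 48.0 CPM in the controls, 16.8, 20.03 and 14.8 in TL-3h, 17.1, 18.7 and 31.0 in TL-3d and 53.8, 26.7 and 42.1 in TL-14d. Its change at 3 hours was -1.56 ± 0.29 (q = 0.00170), and TL-3h and TL-3d overlapped. The other 3 that fell, named here after their values were seen, were IFT27 (-1.56), IFT140 (-1.30) and IFT80 (-1.06). The call of IFT27 (q = 0.0411) was lost in 7 of the 12 fits with a library left out, with q up to 0.118 without TL-3h 3 (-1.31), and with the replicate block (q = 0.0703).

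IFT20 and IFT52 did not follow. IFT20, a peripheral IFT-B subunit that also sits at the Golgi (gene 100349600, chromosome 19, 19777969 to 19786222, plus strand), had 2.30, 2.45 and 3.39 CPM in the controls, 7.22, 8.13 and 8.45 in TL-3h, 3.55, 5.20 and 6.14 in TL-3d and 2.59, 4.29 and 3.71 in TL-14d. All TL-3h libraries were above all others, and the log2 fold change was 1.55 ± 0.28 (q = 0.00160). The gene table held 5.07 times fewer counts for IFT20 than its transcripts together, and with the transcript counts summed the log2 fold change was 1.24 ± 0.20 (q = 0.000749). IFT52, a scaffold of the IFT-B core (gene 100346494, unplaced sequence, 121919671 to 121955982, plus strand), had 22.5, 20.6 and 25.1 CPM in the controls, 18.3, 26.8 and 23.7 in TL-3h, 17.6, 19.1 and 24.1 in TL-3d and 21.3, 23.5 and 25.1 in TL-14d. All 4 groups overlapped, and the log2 fold change of 0.01 ± 0.18 at 3 hours (q = 0.958) became -0.48 (q = 0.0311) when libraries were scaled by their totals only, a scaling that set the median of all genes at -0.47. By complex, with the assignment made from textbook knowledge after the values were seen, 2 of 3 IFT-A genes, 4 of 7 core and 2 of 4 peripheral IFT-B genes fell, where 22.2% of all genes were lower.

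**Figure D3:**
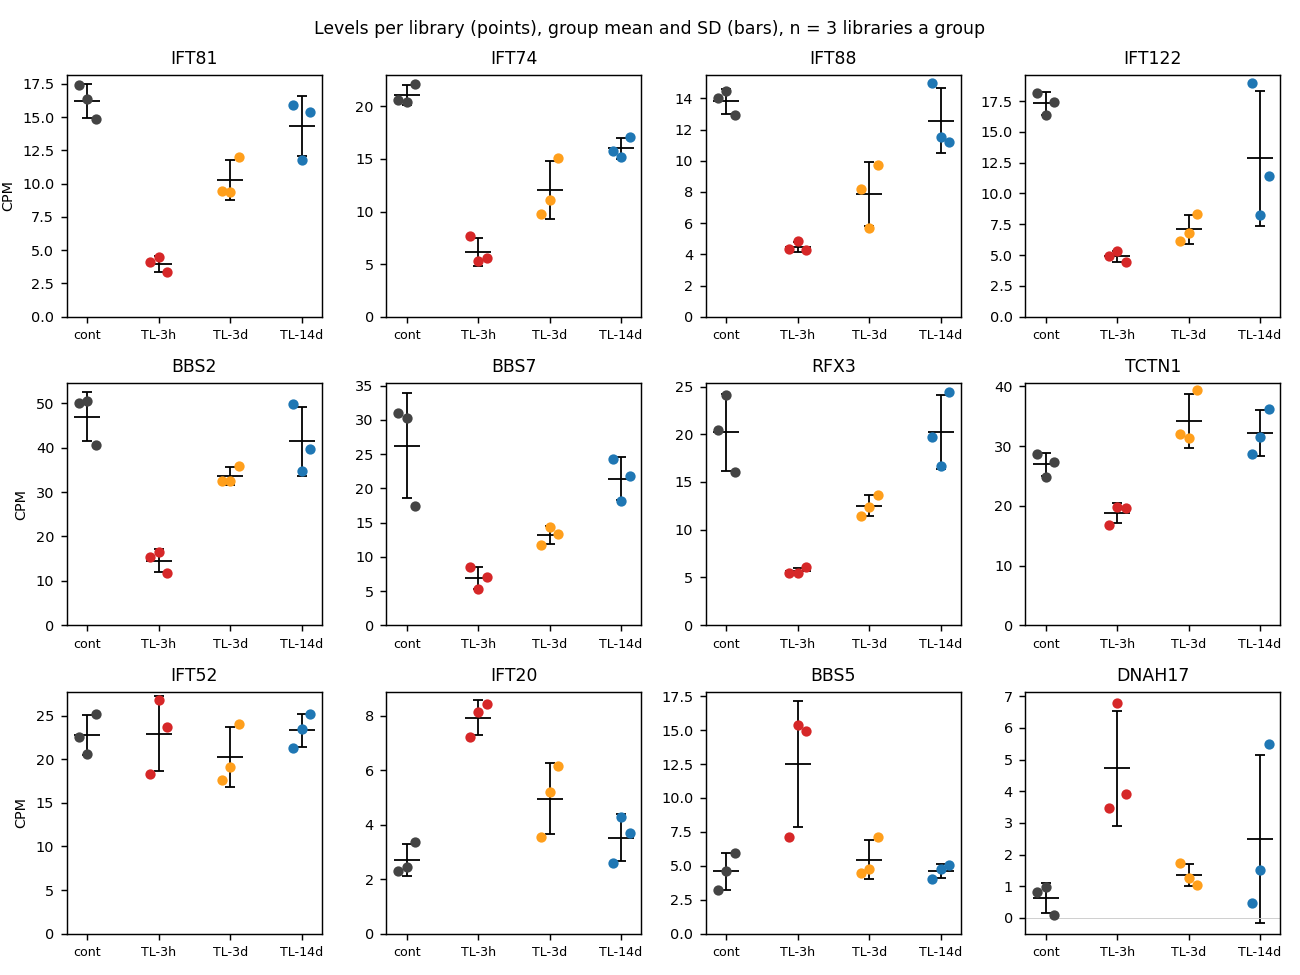
CPM per library (points) with the mean and SD (bars) of 3 libraries a group for 12 cilium genes; each vertical axis is linear and starts at or below 0. IFT81, IFT74, IFT88, IFT122, BBS2, BBS7, RFX3 and TCTN1 have their TL-3h points below all control points, IFT52 shows overlap, and IFT20, BBS5 and DNAH17 have TL-3h points above all control points.

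The BBSome genes moved in both directions. Of the 8 BBS genes, 5 fell, 1 rose and 2 did not pass at 3 hours, where 22.2% of all genes were lower and 23.2% higher. BBS2, a core BBSome subunit (gene 100343044, chromosome 5, 12812618 to 12841426, minus strand), had 49.97, 50.4 and 40.6 CPM in the controls, 15.3, 16.6 and 11.7 in TL-3h, 32.5, 32.4 and 36.0 in TL-3d and 49.8, 34.7 and 39.8 in TL-14d. The TL-3h libraries were the lowest and did not overlap any other group, with a log2 fold change of -1.69 ± 0.18 (q = 9.06e-05). BBS7, its partner in the core (gene 100356131, chromosome 15, 97280742 to 97329501, minus strand), had 31.0, 30.3 and 17.4 CPM in the controls, 8.45, 5.23 and 7.02 in TL-3h, 11.8, 14.4 and 13.3 in TL-3d and 24.3, 18.1 and 21.8 in TL-14d. The library cont 3 was well below the other controls but above all TL-3h and TL-3d libraries, and the change was -1.93 ± 0.26 (q = 2.97e-04). BBS4 (gene 100347284, unplaced sequence, 290187991 to 290212346, minus strand) fell from 23.7 ± 2.68 to 11.4 ± 0.851 CPM, a log2 fold change of -1.05 ± 0.16 (q = 5.66e-04), without overlap. BBS9 (-0.98) and the chaperonin-like BBS10 (-0.85), which helps the complex to assemble, were the other 2 that fell and were named after their values were seen.

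BBS5, the BBSome subunit that binds membrane phosphoinositides (gene 100342443, chromosome 7, 109227728 to 109250382, plus strand), went the other way. It had 3.23, 4.60 and 5.94 CPM in the controls, 7.15, 15.4 and 14.96 in TL-3h, 4.496, 4.74 and 7.14 in TL-3d and 4.07, 4.75 and 5.04 in TL-14d. The lowest TL-3h library was just above the highest control library and near the highest TL-3d library. The log2 fold change at 3 hours was 1.44 ± 0.34 (q = 0.00642), and it was 1.31 ± 0.29 (q = 0.00473) with the transcript counts summed, which held 1.99 times the counts of the gene table.

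Of the transition zone genes with tectonic names, TCTN1 fell at 3 hours and the other two did not pass. TCTN1 (gene 100352796, chromosome 21, 6920685 to 6952436, plus strand) had 28.7, 24.8 and 27.3 CPM in the controls, 16.8, 19.8 and 19.6 in TL-3h, 32.0, 31.3 and 39.4 in TL-3d and 28.7, 31.5 and 36.3 in TL-14d. The TL-3h libraries were below all others, with a log2 fold change of -0.52 ± 0.14 against the controls (q = 0.0128), and all TL-3d libraries were above all control libraries without passing the test (0.35 ± 0.14, q = 0.107). TCTN2 was at 0.20 ± 0.22 (q = 0.510) and TCTN3 at 0.07 ± 0.19 (q = 0.792) at 3 hours, both with overlap.

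Among the regulators, the RFX factors fell and FOXJ1 did not pass. RFX3 (gene 100009410, chromosome 1, 50953004 to 51193786, plus strand) had 20.5, 24.1 and 16.02 CPM in the controls, 5.50, 5.52 and 6.07 in TL-3h, 11.4, 12.4 and 13.7 in TL-3d and 19.7, 16.7 and 24.4 in TL-14d. TL-3h was the lowest group and TL-3d was below the controls, both without overlap, and the change at 3 hours was -1.82 ± 0.20 (q = 9.97e-05). RFX2 (gene 100350548, unplaced sequence, 427954032 to 427997563, plus strand) had 10.1, 10.6 and 6.67 CPM in the controls, 5.38, 5.39 and 3.40 in TL-3h, 8.12, 10.6 and 8.79 in TL-3d and 14.9, 7.22 and 12.8 in TL-14d. Its change of -0.95 ± 0.31 at 3 hours (q = 0.0291) was of like size but not past the threshold without cont 1 (-0.87, q = 0.0832), cont 2 (-0.83, q = 0.0946) or TL-3h 3 (-0.81, q = 0.0857). FOXJ1 (gene 100008873, unplaced sequence, 314121943 to 314126798, plus strand), the main switch of motile cilia, had 0.308, 0.250 and 0.702 CPM in the controls, 0.538, 0.498 and 0 in TL-3h, 2.10, 0.369 and 0.853 in TL-3d and 0.101, 0.0272 and 0.0976 in TL-14d. The TL-3d range overlapped the controls and reached above them, the TL-14d libraries held at most 3 counts each, and no comparison passed the test (q = 0.842 at 3 hours, 0.327 at 3 days and 0.491 at 14 days).

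C13H1orf194 and MAK, each near the detection limit in some groups but not in the controls, had other courses. C13H1orf194, which carries the name of human C1orf194 (gene 100339912, chromosome 13, 55107506 to 55112702, plus strand), had 2.63, 2.10 and 0.853 CPM in the controls, 0.231, 0.0415 and 0.0731 in TL-3h, 0.04995, 0 and 0.114 in TL-3d and 3.23, 0.190 and 0.456 in TL-14d. The TL-3h and TL-3d libraries were below all controls, and 1 TL-14d library, the TL-14d 1 that resembled the controls, was above them. The fitted change was -3.97 ± 1.20 at 3 hours (q = 0.0209) and was not past the threshold without cont 1 (q = 0.0559), TL-3h 2 (q = 0.0720) or TL-3h 3 (q = 0.0727). None of its TL-3h and TL-3d libraries reached 10 counts, so it met the count condition only through control and TL-14d libraries, and its place among the genes that were lower at 3 hours and 3 days follows in part from that condition. MAK, a kinase that limits cilium length (gene 100357745, chromosome 12, 4448779 to 4496094, minus strand), had 1.76, 0.825 and 0.878 CPM in the controls, 1.88, 1.12 and 0.878 in TL-3h, 0.4995, 0 and 0.313 in TL-3d and 0.235, 0.109 and 0.0651 in TL-14d. Its TL-3d and TL-14d libraries were below all controls, and neither comparison with the controls passed the test (q = 0.131 and 0.376). None of its TL-14d libraries reached 10 counts, so MAK met the count condition only through other groups.

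Among the genes with CFAP, DNAH, DNAI and RSPH names few were called at 3 hours. Of the 11 CFAP genes, 1 fell at 3 hours, of the 8 DNAH genes 1 rose, and DNAI1 and the 2 tested RSPH genes did not pass, where 22.2% of all genes were lower and 23.2% higher. CFAP43, a tether of axonemal dyneins (gene 100348513, chromosome 18, 52060424 to 52185058, minus strand), had 9.97, 5.88 and 5.92 CPM in the controls, 4.92, 3.98 and 4.02 in TL-3h, 4.75, 7.30 and 5.95 in TL-3d and 9.01, 11.2 and 12.5 in TL-14d. The TL-3h libraries were below all controls and the TL-14d libraries overlapped the controls. The change of -0.75 ± 0.26 at 3 hours (q = 0.0400) was not past the threshold without cont 1 (-0.46, q = 0.182), TL-3h 2 (q = 0.0909), TL-3h 3 (q = 0.0910), TL-3d 3 (q = 0.0525), TL-14d 2 (q = 0.0521) or TL-14d 3 (q = 0.0507), nor with the replicate block (q = 0.0650) or in a fit of the 6 libraries compared (q = 0.0742). CFAP20 had overlapping groups at -0.15 ± 0.18 (q = 0.514), and was lower with library size only (-0.66, q = 0.0161). CFAP70 was at -1.27 ± 0.50 (q = 0.0593), with cont 1 and cont 2 at 4.27 and 4.05 CPM and cont 3 at 1.05 CPM, and passed without cont 3 (-1.74, q = 0.00405). CFAP54 of the central pair, CFAP57 of the inner dynein arms and CFAP97 were at -0.40, -0.89 and -0.61 without a call, and so were the radial spoke genes RSPH3 (-0.50) and RSPH10B (-0.26).

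DNAH17, an outer arm heavy chain known from sperm flagella (gene 103346589, unplaced sequence, 422796900 to 422866038, minus strand), had 0.830, 0.975 and 0.0752 CPM in the controls, 3.46, 6.80 and 3.91 in TL-3h, 1.72, 1.26 and 1.05 in TL-3d and 0.471, 1.52 and 5.50 in TL-14d. All TL-3h libraries were above all controls, with a log2 fold change of 2.90 ± 0.95 (q = 0.0290). The call was lost without cont 1 (q = 0.0636), cont 3 (q = 0.0541), TL-3h 2 (q = 0.0874) or TL-3h 3 (q = 0.0532) and with the replicate block (q = 0.0513) or library size only (q = 0.0559), and all 12 of its counts were fractions, with PGS1 overlapping it on the other strand. DNAH2, an inner arm heavy chain (gene 100351600, chromosome 19, 11364696 to 11484827, minus strand), had 4.77, 4.23 and 2.31 CPM in the controls, 1.88, 1.74 and 0.695 in TL-3h, 0.874, 1.02 and 0.512 in TL-3d and 5.01, 1.47 and 1.89 in TL-14d. The TL-3h and TL-3d libraries were below all controls, with -1.39 ± 0.56 at 3 hours (q = 0.0668) and -2.23 ± 0.57 at 3 days (q = 0.0291). DNAH11 (0.96), DNAH12 (0.94), DNAH8 (-0.65) and DNAI1 (-0.81) did not pass at 3 hours. Nor did DNAH9 (-2.09), DNAH1 (-0.77) and DNAH14 (-0.56), named here after their values were seen. Of the 8 DNAH genes, 3 had all TL-3h libraries below all controls and 3 above, where 28.3% and 28.9% of all genes were so placed.

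Markers of neutrophils and proliferating cells, and some of blood endothelium, moved with this comparison, in which 23.2% of all genes were higher and 22.2% lower. All 6 tested neutrophil markers rose at 3 hours, and the 7 in the table summed to 3.49 to 82.4 CPM in the controls, 1049 to 2791 in TL-3h, 126 to 739 in TL-3d and 3.36 to 114 in TL-14d. Macrophage markers, of which 2 of 7 rose, summed to 104 to 823 CPM in the controls and 756 to 1153 in TL-3h, which overlapped. Fibroblast markers summed to 12158 to 76264 CPM in the controls and 105011 to 125515 in TL-3h, with 0 of 6 called, and epithelial markers to 6135 to 12212 and 4927 to 7985. Of the 8 epithelial markers, 1 was lower and 1 higher. KRT15 and PAX6 lay below all controls in TL-3h, EPCAM and CDH1 lay above them, and the others overlapped the controls. Blood endothelial markers, of which 2 of 5 rose, summed to 63.7 to 275 CPM in the controls and 605 to 1211 in TL-3h. Most of the TL-3h sum was PECAM1, at 717, 972 and 459 CPM. PECAM1 and CDH5 lay above all controls in TL-3h, while VWF, KDR and TEK overlapped the controls. All 5 markers of proliferating cells fell. Goblet cell markers, of which 1 of 2 tested fell, summed to 486 to 1663 CPM in the controls and 102 to 467 in TL-3h. The part of these cell types in the changes of the cilium genes was not tested.

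The transcript table was read for the same comparison. The 53 genes had 120 annotated transcripts, of which 89 were tested, 18 were lower and 4 higher, where 14.1% of all 26082 tested transcripts were lower and 14.1% higher. IFT20 had 3 of 4 tested transcripts higher, its main one at 12.5 to 15.7 CPM in the controls and 25.2 to 28.0 in TL-3h. IFT122 had 2 of 3 and BBS7 2 of 2 transcripts lower. Counts of transcripts of a gene are estimates that share reads.

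Genes of the rest of the pathway were then counted by list, against 22.2% of all genes lower and 23.2% higher at 3 hours. Of 152 listed genes of transport, transition zone, basal body, axoneme, transcription, kinases and Hedgehog signaling, 112 were tested, and at 3 hours 59 were lower (52.7%) and 7 higher, with a median log2 fold change of -0.86. These lists were also chosen with earlier results of these data known, so their shares describe them and do not test them. The 23 tested transport genes without IFT names had 13 lower (56.5%) and 0 higher. Among them WDR19, an IFT-A subunit, fell from 19.2 ± 2.42 to 4.84 ± 0.988 CPM (-1.99 ± 0.20, q = 7.69e-05), and the kinesin motor KIF3A fell from 17.7 ± 2.62 to 5.87 ± 0.595 CPM (-1.59 ± 0.22, q = 3.80e-04). In the transition zone list, 10 of 18 were lower (55.6%) and 2 higher, with MKS1 at -1.95 ± 0.25 (q = 2.25e-04) and RPGRIP1L at -1.18 ± 0.18 (q = 6.61e-04).

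In the basal body and centriole list 16 of 20 tested genes were lower (80%, against 22.2% of all genes) and 1 higher at 3 hours. C2CD3, needed to build distal appendages of the basal body, fell from 41.2 ± 4.79 to 14.8 ± 1.60 CPM (-1.48 ± 0.14, q = 5.22e-05), and SASS6, the centriole cartwheel protein, from 6.30 ± 1.13 to 1.47 ± 0.340 CPM (-2.09 ± 0.22, q = 9.20e-05). At 3 days 4 of these 20 were lower and 5 higher, where 7% of all genes were lower and 10.6% higher, with SASS6 at 14.5 ± 0.641 CPM (1.20 ± 0.21, q = 0.0114). The calls at 3 days depended on single libraries: over all pathway lists, 3 to 33 genes were called with each library left out. The 5 markers of proliferating cells moved with the genes of this list, with 5 lower at 3 hours and 4 higher at 3 days. Their sums were 76.6 to 162 CPM in the controls, 17.0 to 31.0 in TL-3h and 257 to 290 in TL-3d. The part of these markers in this list's values was not tested.

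In the list of the motile axoneme and its assembly 12 of 29 tested genes were lower (41.4%, against 22.2% of all genes) and 2 higher at 3 hours. Both that rose help to assemble dynein arms in the cytoplasm: SPAG1 went from 10.5 ± 5.01 to 67.0 ± 17.7 CPM (2.67 ± 0.49, q = 0.00157) and DNAAF2 from 9.34 ± 0.596 to 20.7 ± 2.08 CPM (1.15 ± 0.14, q = 1.76e-04). Of 5 tested transcription genes, 2 fell (40%) and 1 rose, with RFX7 at -1.61 ± 0.27 (q = 9.76e-04) and E2F4, a factor with wide roles in the cell cycle, at 1.48 ± 0.16 (q = 9.10e-05). Of 5 ciliary kinases, ICK and MOK of the MAK family with CDK20, NEK1 and NEK8, 4 fell (80%) and CDK20 rose, with MOK at -2.87 ± 0.74 (q = 0.00990) and NEK1 at -1.05 ± 0.20 (q = 0.00178). Hedgehog signals pass through the primary cilium, and 2 of the 12 tested genes of that pathway were lower (16.7%, below the 22.2% of all genes), its receptor PTCH1 at -2.27 ± 0.33 (q = 4.60e-04) and its inhibitor SUFU at -1.12 ± 0.14 (q = 2.14e-04).

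At 3 days 5 of 14 IFT genes and 2 of 8 BBS genes were below the controls, and of the RFX factors RFX3 was lower and RFX2 was not called. Of the 52 tested, 10 were lower and 0 higher: IFT81, IFT122, IFT74, IFT88, IFT172, BBS7, BBS4, RFX3, DNAH2 and C13H1orf194. Over all genes 17.6% were called, 7% lower and 10.6% higher, and the median over the cilium genes was -0.50. IFT122 was at -1.29 ± 0.27 (q = 0.0173), IFT172 at -1.18 ± 0.28 (q = 0.0233) and BBS7 at -0.997 ± 0.25 (q = 0.0271), while RFX3 was at -0.69 ± 0.19 (q = 0.0354) and IFT81 at -0.66 ± 0.18 (q = 0.0381). The call of IFT81 was also lost with the replicate block (q = 0.0541) and without TL-3h 1 (q = 0.0502) or TL-14d 3 (q = 0.0533), at about the same log2 fold change (-0.66, -0.67 and -0.66), and those of BBS7 (q = 0.0531) and DNAH2 (q = 0.0686) without TL-3d 3. That of IFT88 was lost in a fit of the 6 libraries compared (-0.82, q = 0.0502). BBS4 had 13.9 ± 0.576 CPM at 3 days and 11.4 ± 0.851 at 3 hours, and its change from the controls at 3 days was -0.78 ± 0.16 (q = 0.0159). The fitted change of C13H1orf194, -4.98 ± 1.26 (q = 0.0275), rests on at most 4 counts in a TL-3d library. In 21 of the 53 genes all TL-3d libraries were below all controls and in 4 they were above, where 21.7% and 23.8% of all genes were so placed. Without cont 1, cont 2, TL-3d 1 or TL-3d 2 the number of called cilium genes was 0, at 13 to 16 genes with an unadjusted p under 0.05 in edgeR against 18 with all libraries, and all genes called went from 2608 to between 359 and 491. Macrophage markers summed to 1360 to 2140 CPM in TL-3d against 104 to 823 in the controls, with 3 of 7 higher, and 4 of 5 markers of proliferating cells were higher; their part in the changes at 3 days was not tested. Of the 112 other pathway genes, 19 were lower and 7 higher at 3 days, and 3 to 33 were called with each library left out.

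**Figure D4:**
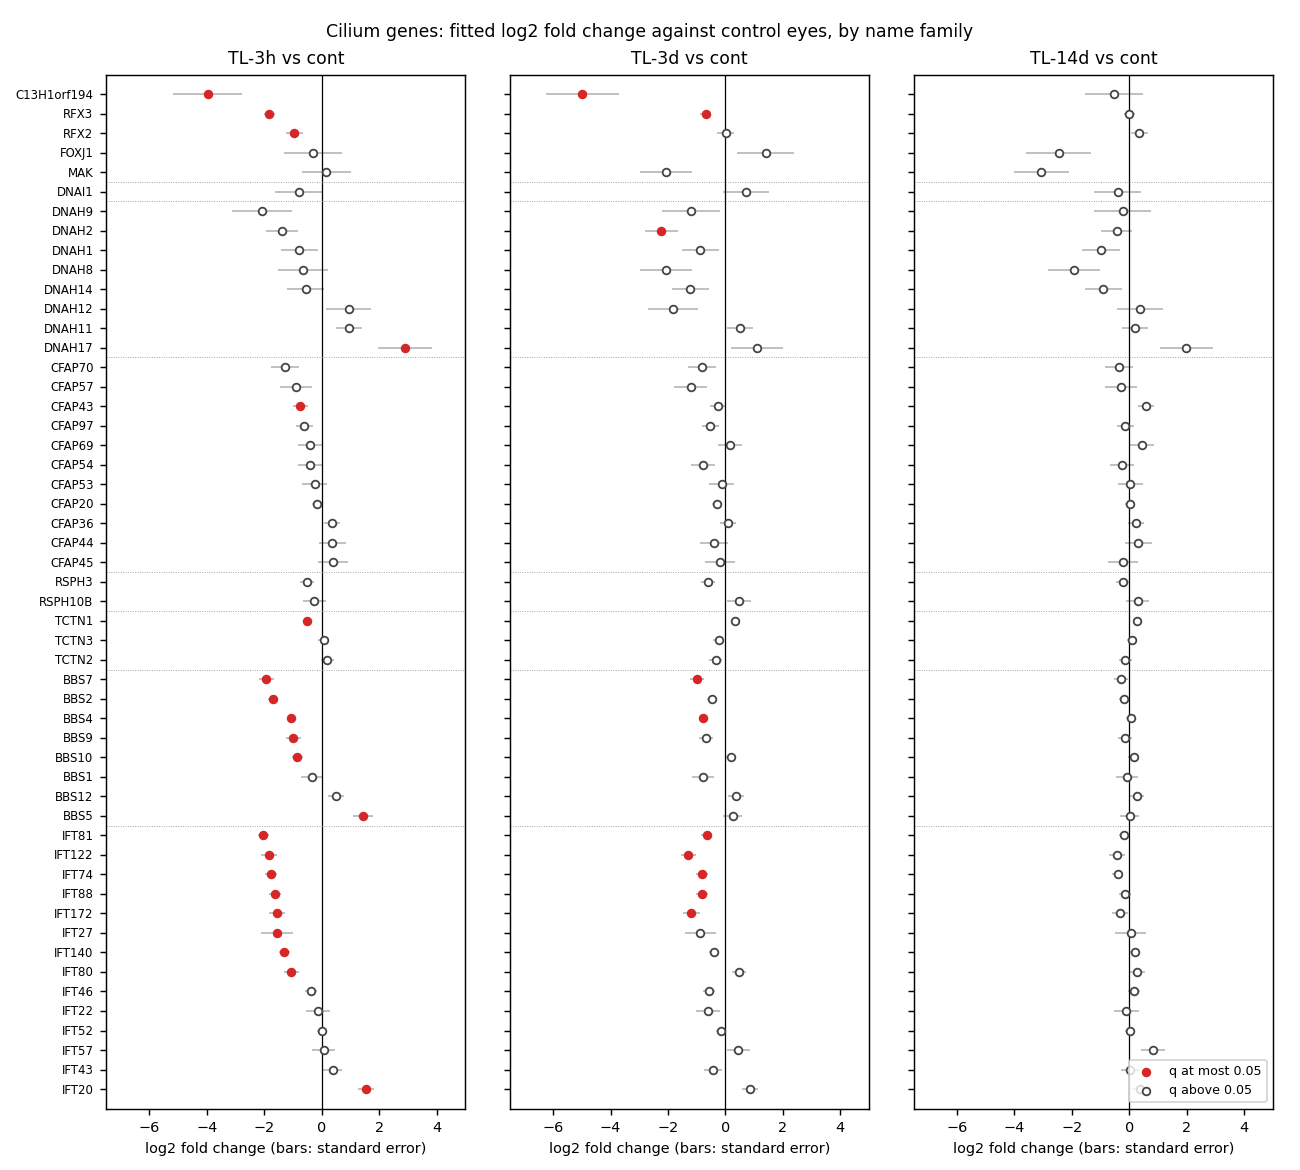
Fitted log2 fold change against the control eyes (horizontal axis, bars: standard error) for the 52 tested cilium genes, in rows by name family, at TL-3h, TL-3d and TL-14d. Red points have q of at most 0.05; there are 21 in the first panel, 10 in the second, all left of 0, and 0 in the third, where the median was -0.03.

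At 14 days no cilium gene differed from the controls in the edgeR test, nor did any of the 14835 genes (0%), of which 1538 had an unadjusted p under 0.05. Of the 52 cilium genes, 2 had an unadjusted p under 0.05, MAK (-3.06 ± 0.97, q = 0.376) and CFAP43 (0.58 ± 0.26, q = 0.482), and DESeq2 called 1, MAK (q = 0.0333). The intervals were wide for low genes and narrower for the transport genes, with IFT81 at -0.17 ± 0.18, IFT122 at -0.43 ± 0.27, BBS2 at -0.18 ± 0.17 and RFX3 at 0.01 ± 0.19 (SE). In 4 of the 53 all TL-14d libraries were below all controls and in 1 they were above, where 5.11% and 6.03% of all genes were so placed. Without TL-14d 1, the library close to the controls, 0 cilium genes were called and 9 had an unadjusted p under 0.05, while the number of all genes called was 716. DESeq2 on all libraries called 367 of all genes.

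The operated groups were then set against each other, with TL-3h as the reference that these comparisons share with the first. Between 3 hours and 3 days, 11 cilium genes were higher at 3 days and 2 were lower, where 37.3% of all genes were called, 18.4% higher and 19% lower. In 15 of the 53 all TL-3d libraries were above all TL-3h libraries and in 8 below, where 26.2% and 28.5% of all genes were so placed. IFT81 was higher by 1.37 ± 0.19 (q = 4.48e-04), BBS2 by 1.21 ± 0.18 (q = 5.92e-04), RFX3 by 1.13 ± 0.19 (q = 0.00143) and TCTN1 by 0.87 ± 0.14 (q = 0.00116). The 2 lower ones were BBS5 (-1.19 ± 0.34, q = 0.0197) and the inner arm dynein DNAH12 (-2.76 ± 0.88, q = 0.0323), which had 0.576, 0.705 and 0.439 CPM in TL-3h and 0.150, 0.0308 and 0.0569 in TL-3d. None of the TL-3d libraries of DNAH12 reached 10 counts. It met the count condition only through other groups, so its place among the lower genes follows in part from that condition. The call of DNAH12 was lost without any 1 of TL-3h 1, TL-3h 2, TL-3h 3, TL-3d 2 and TL-3d 3 (q from 0.0549 to 0.111) and with library size only (q = 0.0558), and that of BBS5 without TL-3h 2, TL-3h 3, TL-3d 1 or TL-3d 2 (q from 0.0715 to 0.0762) and with library size only (-0.72, q = 0.0947). IFT122 and IFT172, at 0.53 ± 0.27 (q = 0.152) and 0.37 ± 0.28 (q = 0.324), were not called between these times.

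Between 3 hours and 14 days, 18 cilium genes were higher at 14 days and 3 lower, where 45.3% of all genes were called, 22.9% higher and 22.3% lower. In 20 of the 53 all TL-14d libraries were above all TL-3h libraries and in 5 below, where 25.2% and 27.6% of all genes were so placed. The median log2 difference was 0.49 over the cilium genes and 0.0043 over all genes. IFT81 was higher by 1.85 ± 0.19 (q = 9.02e-05), RFX3 by 1.83 ± 0.20 (q = 1.05e-04), BBS7 by 1.63 ± 0.26 (q = 7.30e-04) and IFT122 by 1.39 ± 0.28 (q = 0.00267). The 3 lower ones were IFT20 (-1.17 ± 0.28, q = 0.00716), BBS5 (-1.43 ± 0.34, q = 0.00693) and MAK (-3.22 ± 0.98, q = 0.0222). MAK met the count condition only through groups other than TL-14d, so its place among the lower genes follows in part from that condition. The call of MAK was lost without TL-3h 1 (q = 0.0692), TL-14d 2 (q = 0.0670) or TL-14d 3 (q = 0.0769), and that of IFT20 with library size only (-0.68, q = 0.0544).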

How the data were processed

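RNA of 12 conjunctiva libraries (TruSeq Stranded mRNA, paired reads) was analysed, grouped by sample label. The authors mapped reads to OryCun2.0 with STAR 2.6.0c and deposited estimated counts per gene and transcript made with GeneData Profiler Genome, of which 23.4% per gene were fractions. The authors also deposited FPKM values, which were used here only to set levels of different genes side by side. How reads of overlapping genes were split, and whether the counting used strand, is not given in the sources used here; IFT81, TCTN1, CFAP43, CFAP97, DNAH12 and DNAH17 overlap another annotated gene and had fractional counts in at least 91.7% of libraries. Positions and gene numbers are those of the authors' table; unplaced sequence is a joined sequence of such pieces.

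Estimated counts were rounded. The plan was written for counts and its test was kept. In edgeR 4.0.16 (R 4.3.3, limma 3.58.1), filterByExpr (minimum count 10, minimum total 15) kept 14835 of 20566 genes, TMM factors were computed, and a single quasi-likelihood model with the 4 groups and no covariate was fitted to the 12 libraries. Adjusted p-values (q) follow Benjamini-Hochberg over all genes tested, with a threshold of 0.05. The standard error (SE) is the size of the log2 fold change divided by the square root of F. Levels were expressed as CPM on library sizes multiplied by the TMM factor, and summarised as mean ± SD (n = 3 libraries). The TMM factors were 0.768 to 0.783 in TL-3h and 1.03 to 1.13 in the other groups. The fit was tested on simulated data. Totals were 27111348 to 38591425 counts, with no molecular identifiers, so floors reflect counting error alone. With 3 libraries against 3, the smallest two-sided p of an exact permutation test is 0.10, and it was not used.

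The cilium genes and the pathway and marker lists were chosen with earlier results of these data known. Genes named were the 5 taken singly, in each family the 3 with the smallest q at 3 hours and the 2 at 3 days, those called against the main direction, the 3 of highest control FPKM, the 3 of smallest q at 14 days, and 2 per pathway list. Alternatives were DESeq2 1.42.0, DESeq2 size factors, library size only, other count filters, limma-trend, fits of 6 libraries, the replicate number as a block, a fold condition of 2, each library left out and, added after seeing the data, transcript counts summed by gene. Libraries of 1 group were not copies of each other.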

Additional observations from a re-analysis of the deposited data

Results flagged for a closer look

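Several cilium genes differed between operated groups under the same control, by the edgeR test of the difference itself. At 3 days against 3 hours, 13 of the 52 tested cilium genes were called, a smaller share than the 37.3% of all genes. At 14 days against 3 hours it was 21 of 52, also a smaller share than the 45.3% of all genes. The comparisons share the TL-3h libraries. At 3 days against 3 hours, the log2 differences of the transport genes were 1.37 for IFT81 (q = 4.48e-04), 0.96 for IFT74 (q = 0.00424) and 0.81 for IFT88 (q = 0.0141). The BBSome genes were at 1.21 for BBS2 (q = 5.92e-04), 0.93 for BBS7 (q = 0.0163) and -1.19 for BBS5 (q = 0.0197). TCTN1 was at 0.87 (q = 0.00116), RFX3 at 1.13 (q = 0.00143), RFX2 at 0.95 (q = 0.0341) and DNAH12 at -2.76 (q = 0.0323). DNAH12 met the count condition only through groups other than TL-3d. The calls of DNAH12 (q up to 0.111), RFX2 (q up to 0.108) and BBS5 (q up to 0.0762) were each lost in 4 or 5 of the 12 fits with a library left out, and those of BBS7 (q up to 0.0562) and IFT88 (q up to 0.0508) in 2 and 1.

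At 14 days against 3 hours, the transport genes were at 1.85 for IFT81 (q = 9.02e-05), 1.48 for IFT88 (q = 4.74e-04), 1.37 for IFT74 (q = 5.02e-04), 1.39 for IFT122 (q = 0.00267), 1.25 for IFT172 (q = 0.00561) and -1.17 for IFT20 (q = 0.00716). The BBSome genes were at 1.51 for BBS2 (q = 1.63e-04), 1.11 for BBS4 (q = 4.39e-04), 1.63 for BBS7 (q = 7.30e-04) and -1.43 for BBS5 (q = 0.00693). RFX3 was at 1.83 (q = 1.05e-04), RFX2 at 1.30 (q = 0.00701), TCTN1 at 0.78 (q = 0.00168) and CFAP43 at 1.34 (q = 0.00274). MAK, near the detection limit in TL-14d, was at -3.22 (q = 0.0222), and C13H1orf194, near it in TL-3h, at 3.43 (q = 0.0377). Each met the count condition only through groups other than that low group. C13H1orf194 had TL-14d 1 at 3.23 CPM and the other TL-14d libraries at 0.190 and 0.456 CPM. Without TL-14d 1 the difference of C13H1orf194 was 1.45 (q = 0.257), and its call was also lost without cont 2 (q = 0.0531), TL-3h 2 (q = 0.114), TL-3h 3 (q = 0.111) or TL-3d 1 (q = 0.0516) and by limma-trend (2.50, q = 0.0644).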

How the results depend on the processing

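At 3 hours the count of called cilium genes was 21. It was 16 when a 2-fold change was also required and 17 to 23 with each library left out, and 16 of the 21 were called without TL-3h 3. The calls over all genes ranged over 5280 to 7271 with each library left out. With library size only it was 27 (25 lower, 2 higher), where the calls over all genes went from 6733 to 7562 and their median to -0.47. At 3 days the count of 10 was 4 when a 2-fold change was also required and 0 to 12 with each library left out; all genes called fell too where it was 0. At 14 days it was 1 by DESeq2 and 0 in the other settings run. Between 3 hours and 3 days the count of 13 was 7 with the fold condition and 9 to 14 with libraries left out, and between 3 hours and 14 days the count of 21 was 18 to 22. Over all genes, 3954 to 6231 and 5464 to 6798 were called in these 2 comparisons with libraries left out. The called transcripts, 22, ranged over 15 to 25. The other pathway genes called at 3 hours, 66, ranged over 53 to 68. At 3 days their 26 became 44 by DESeq2, 12 with the fold condition, and 3 to 33 with libraries left out (8 without cont 1, 5 without cont 2, 3 without TL-3d 1 and 3 without TL-3d 2). The cause was not tested. One direction turned at a call: IFT52 at 3 hours was -0.48 with library size only. Of the other values of single genes against the controls under the alternatives, 880 kept a call, 88 lost one, 30 gained one and 2101 had none in either fit. With transcript counts summed by gene, 21, 11, 0, 15 and 21 cilium genes were called in the 5 comparisons, and IFT20 passed at 3 days (0.69, q = 0.0394). Deviations of libraries of the same number had a correlation over 0.1 in 8 of 18 pairs, with a range from -0.21 to 0.53, so the numbers were not taken as a pairing; 8 of 12 libraries were closest to their own number. With the replicate block 19 cilium genes were called at 3 hours (17 lower, 2 higher). Depth limits the DNAH, DNAI and FOXJ1 values, several of which rest on fewer than 10 counts in a library.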
